A study of Mus musculus with 5 samples.

Results

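Most core histone mRNAs end in a stem-loop instead of a poly(A) tail and are made in S phase. A small set of histone variant genes gives polyadenylated mRNAs instead, and their proteins are deposited into chromatin outside of replication. The genes examined here were H2afz and H2afv, which encode the H2A.Z variants found at promoters, H2afx, which encodes the H2AX variant phosphorylated at DNA breaks, and H3f3a and H3f3b, which both encode the replacement histone H3.3. N6-methyladenosine (m6A) is placed on mRNA mainly by the METTL3 complex, mostly in DRACH motifs (D is A, G or T, R is A or G, H is A, C or T, written as DNA throughout), and mostly in long last exons around and after the stop codon. H2afx is a special case within the family, since its mRNA is known to be made in a form that ends at a histone stem-loop and in a longer polyadenylated form.

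The members were all covered adenosines on exons of the 5 genes in the GENCODE M21 annotation of mm10, on the strand of the call. They comprised 855 of 508130 covered exonic positions, with 238 on H2afx, 432 on H3f3b, 111 on H2afz, 74 on H2afv and 0 on H3f3a. The level of a position was the number of m6A calls divided by the number of valid calls in a library, and a site was a position of 10% or more in at least 1 of the 5 libraries. By this rule 36 of the 21876 exonic sites were on these mRNAs, 20 on H2afx, 13 on H3f3b, 2 on H2afz and 1 on H2afv. Of these, 30 lay in a 3′ UTR and 6 in a coding sequence.

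The libraries came from nanopore direct RNA sequencing of poly(A) RNA from mouse embryonic stem cells (mESCs) cultured with serum and LIF. By the methods, the 2i inhibitors were added to this medium for maintenance. In the METTL3 inhibition dataset, E14 mESCs were exposed to the METTL3 inhibitor STM2457 at 30 µM over 48 h, or to 0.025% v/v DMSO as the control. Both cultures carried 2C::3xtbGFP-PEST and Zscan4::mCherry-PEST reporters, a doxycycline-dependent APOBEC1-YTH construct that was not induced, and an FKBP12 F36V tag knocked into both Mettl3 alleles that was not induced either. The labels give their genotype as WT. In the Mettl5 dataset, untreated WT mESCs were compared with 2 untreated Mettl5-KO clones, made in an earlier study. METTL5 is known to methylate the 18S ribosomal RNA. There was 1 library per condition or clone, so every test below compares libraries and has no replicate check, and both clones share the WT library. By the labels, each dataset was 1 batch, and the datasets differ in cell line and batch, which cannot be told apart for any difference between DMSO and WT.

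Valid calls per library ranged from 17897440 to 71574467, and the median number of valid calls at a covered position from 45 to 64. All 10 stem cell markers examined, Pou5f1 and Nanog among them, had covered exonic positions in the METTL3 inhibition dataset, and 8 of 10 had them in the Mettl5 dataset. No exonic position of Mettl5 itself was covered in any library, so the deletion could not be checked on its own transcript. The clone #2 library stood apart near 3′ ends. In the last 100 bases of covered 3′ UTR, its reads were a median of 79.3% of those 250 to 400 bases upstream (452 genes), against 98.2% in clone #1 and 102.1% in WT. On H2afx this value was 34.1% and on H3f3b 25.4% in clone #2, so the distal sites of both genes rested on fewer reads in that library.

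The sites that carried most of the m6A of this family lay in the last part of the H2afx 3′ UTR. H2afx (ENSMUSG00000049932.3, chr9:44334694-44336077, plus strand) is a gene of 1 exon with 1384 bases, 432 of them coding and 884 in the 3′ UTR. The 7 sites of 50% or more in DMSO are shown because the other members have none. Each is named by its distance in bases after the stop codon, with the 5-base motif around the adenosine in capitals and its mm10 position. The sites at 438, 621, 765 and 791 were chosen as the 4 highest of the gene, and those at 424, 639 and 785 were added after their values were seen.
H2afx 424, chr9:44335607-44335627: cctcgcctGGACCtttgaaaa
H2afx 438, chr9:44335621-44335641: ttgaaaagTGACTtgattgcc
H2afx 621, chr9:44335804-44335824: ggtcagagAGACGcttaccgg
H2afx 639, chr9:44335822-44335842: cggcctgtGGACAagagttct
H2afx 765, chr9:44335948-44335968: ccctgtctGGACTgagcctct
H2afx 785, chr9:44335968-44335988: tggcttctGAACTggaacttt
H2afx 791, chr9:44335974-44335994: ctgaactgGAACTtttgcagc
These motifs are DRACH except for the AGACG at 621, whose last base is a G.

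The other sequences of note on these mRNAs follow, in the same format. H2afz 75 and H2afv 50 hold the same GGACT as H2afx 765, and H3f3b 148 and 152 hold the same TGACT as H2afx 438. H3f3b 457 stands just after a run of adenosines and has no DRACH motif.
H2afz 75, chr3:137866512-137866532, plus strand: attccagtGGACTgtatctct
H2afv 50, chr11:6428311-6428331, minus strand: ggcagaggGGACTagtgcggt
H2afv 122, chr11:6428239-6428259, minus strand: atgtttttAGACTcggagttt
H3f3b 148, chr11:116023249-116023269, minus strand: gggaagagTGACTgactgttc
H3f3b 152, chr11:116023245-116023265, minus strand: agagtgacTGACTgttcacag
H3f3b 457, chr11:116022940-116022960, minus strand: aaaaaaaaGTAAAcctggcag

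H2afx carried m6A at high levels in a stretch of 368 bases, from 424 to 791 bases after the stop codon, and at most 16.4% in DMSO before it. At the 7 sites the level in DMSO was lowest at 785, with 59.9% (95% exact binomial interval 55.5 to 64.3), and highest at 765, with 94.9% (92.7 to 96.6). These and all further intervals are of the same kind and cover counting error only. The mean over the 7 sites was 81.2% in DMSO and 27.2% in STM2457, while WT had 78.4%, clone #1 had 79.9% and clone #2 had 76.3%. The 4 libraries without inhibitor were thus close to each other, and the STM2457 library was below all of them at each of the 7 sites.

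**Figure D1:**
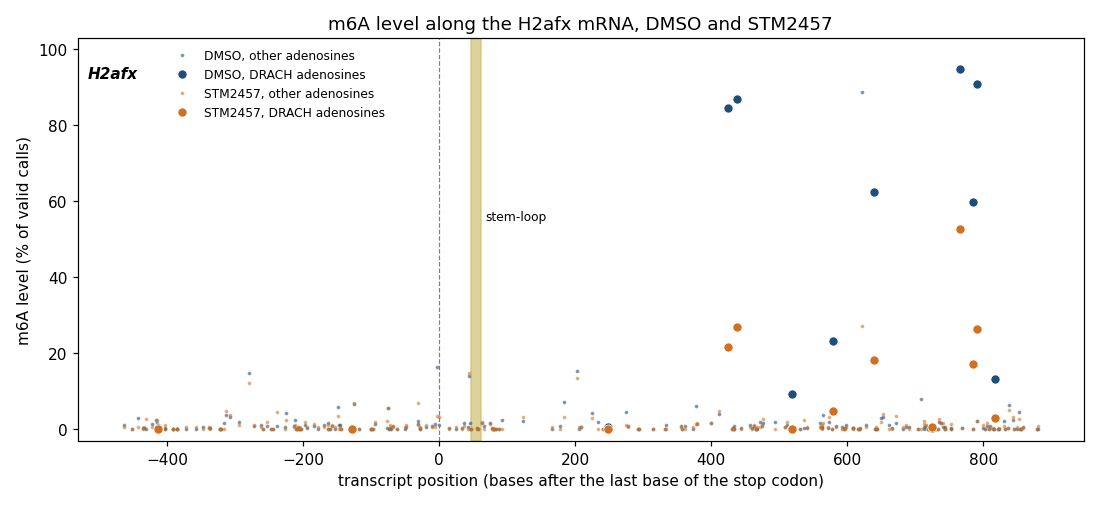
m6A level (percent of valid calls) of every covered adenosine along the H2afx mRNA, by distance in bases from the end of the stop codon, in DMSO and STM2457. Large points are DRACH adenosines, small points other adenosines, the dashed line is the end of the stop codon and the band is the stem-loop. In DMSO the points of 50% or more lie between 424 and 791 bases after the stop codon.

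Of the 132 covered positions upstream of 424, the coding sequence included, none exceeded 16.4% in DMSO, and the 3 DRACH adenosines among them were at 0.778% or less. From 424 to 791 there were 83 covered positions, 9 of them DRACH. All 11 DRACH motifs of the H2afx 3′ UTR were covered, and 8 were sites. The levels of the same pentamer could differ strongly within this 3′ UTR. GAACT was at 91.0% at 791 and at 59.9% only 6 bases upstream. GAACC was at 23.3% (19.7 to 27.2) at 579 and at 13.4% (10.6 to 16.6) at 817.

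The mean DMSO level over the covered 3′ UTR DRACH adenosines was 47.9% on H2afx, at percentile 98.6 of 1506 genes with at least 5 such adenosines. The same mean was 5.76% on H2afz (percentile 23.8), 3.95% on H2afv (16.5) and 1.65% on H3f3b (4.65), and the median gene had 12.6%. Among the genes compared, this family therefore included a gene near the top and a gene near the bottom of the order. The number of adenosines behind each mean was 11 on H2afx, 10 on H2afz, 5 on H2afv and 25 on H3f3b.

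**Figure D2:**
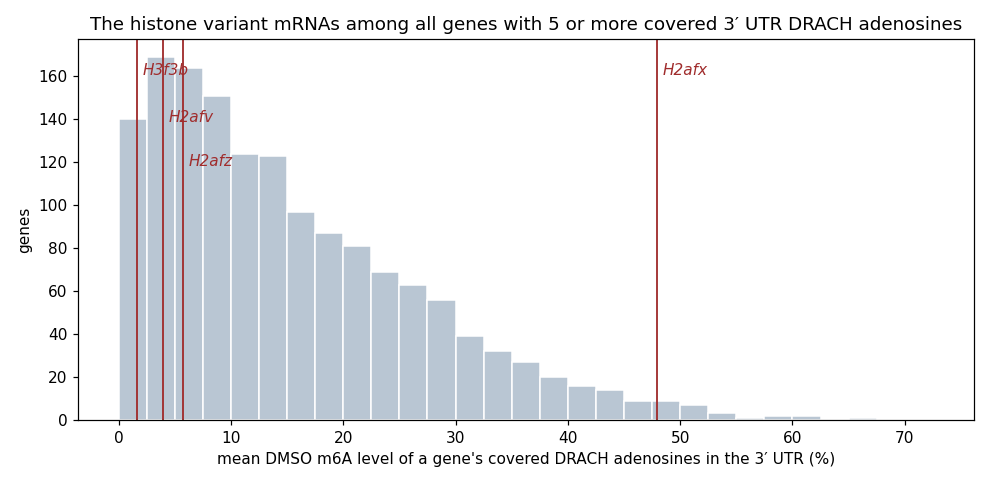
Number of genes (vertical axis) by the mean m6A level in DMSO (percent) of their covered 3′ UTR DRACH adenosines, for 1506 genes with at least 5 of these. Lines mark the 4 histone variant genes, with H2afx at 47.9% and H3f3b, H2afv and H2afz between 1.65% and 5.76%.

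After METTL3 inhibition, H2afx lost most of its m6A, H2afz fell at its single DRACH site, H3f3b fell at 1 weak site, and the site of H2afv did not pass the test. DRACH adenosines just under 10%, on H2afv, H3f3b and H2afx, are not in these counts and are given with the other thresholds in the closing section. Over the 4 covered genes, 13 of 36 sites were called lower and 0 higher in STM2457 than in DMSO (two-sided Fisher's exact test of m6A against unmodified calls, adjusted by Benjamini-Hochberg over 19980 exonic sites). Over those exonic sites, 41.5% were called lower and 0.49% higher. Of the 36 member sites, 19 reached 10% in DMSO or STM2457, and the others entered only through the Mettl5 dataset. Of the 18 at 10% or more in DMSO, 12 were called lower, as were 8137 of 14111 such exonic sites. An unadjusted p below 0.05 was found at 14 member sites, and all 14 were lower in STM2457. The 10 DRACH sites were all called lower, where 77.4% of all exonic DRACH sites were lower and 0.0102% higher. Of the 26 sites outside DRACH, 3 were called lower, where 7.22% of all such exonic sites were lower and 0.949% higher. The median relative decrease over the 18 member sites of 10% or more in DMSO was 69.2%, and it was 79.2% over all exonic sites with such a level. It was 71.1% at the 10 DRACH sites, against 84.0% over all exonic DRACH sites.

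At H2afx 765, the highest site of the family, the level was 94.9% of 548 calls in DMSO and 52.7% of 201 calls in STM2457. In the Mettl5 dataset WT had 94.3%, clone #1 had 94.6% and clone #2 had 97.6%. Only the STM2457 library was low here, and it still held more m6A at this site than at any other member position (adjusted p = 1.89e-36 by Fisher's exact test). The relative decrease at 765 was 44.4%, the smallest of the 7 sites.

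At H2afx 791 the level fell from 91.0% of 543 calls to 26.5% of 204 calls after STM2457 (adjusted p = 1.84e-64 by Fisher's exact test). WT had 85.4%, clone #1 had 84.3% and clone #2 had 83.1%. At H2afx 438 it was 86.9% in DMSO and 26.9% in STM2457, while WT had 87.1%, clone #1 had 92.1% and clone #2 had 85.7%. For this TGACT the adjusted p for STM2457 against DMSO was 1.21e-47 (Fisher's exact test). Both sites thus kept under 27% of their calls as m6A with the inhibitor and over 83% without it.

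The AGACG at 621 behaved by its values like the DRACH sites around it. It was at 88.7% (85.8 to 91.3) in DMSO and at 27.1% (21.1 to 33.9) in STM2457 (adjusted p = 2.14e-56 by Fisher's exact test). WT had 83.3%, clone #1 had 88.0% and clone #2 had 84.5%. Few calls failed the confidence filter there, with 1.08% in DMSO. AGACG is seldom methylated to such an extent. Over the 343 covered 3′ UTR positions with this pentamer the median DMSO level was 0.452%, and 1.46% of them reached 50%.

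The remaining 3 strong sites fell in the same way. GGACC at 424 went from 84.5% to 21.8%, GGACA at 639 from 62.4% to 18.3% and GAACT at 785 from 59.9% to 17.2% (adjusted p = 3.31e-24 at most by Fisher's exact test). Over the 7 sites the relative decrease ranged from 44.4% to 74.2% with a median of 70.6%. Sites of 1 mRNA are read from the same molecules and are not replicates.

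**Figure D3:**
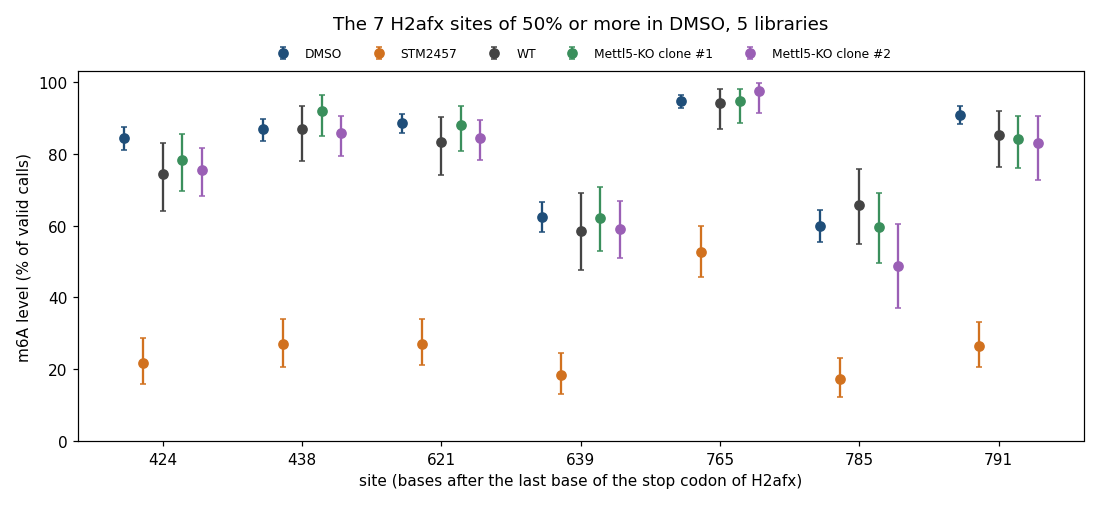
m6A level (percent of valid calls) at the 7 H2afx sites of 50% or more in DMSO, by distance in bases after the stop codon, in the 5 libraries. Points are levels and bars are exact binomial 95% intervals. At every site STM2457 lies below the 4 other libraries, from 17.2% to 52.7%.

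A further 4 H2afx sites, chosen after their values were seen, were called lower after STM2457. The GAACC at 579 fell from 23.3% to 4.86% and the GAACC at 817 from 13.4% to 2.99%. Outside DRACH, a CGACT at 708 fell from 7.94% of 529 calls to 0 of 186 calls, which allows up to 1.61%, and a GTACT in the last codon before the stop codon fell from 16.4% to 3.64%. The adjusted p of these 4 was 5.2e-05 at most (Fisher's exact test). The other 9 H2afx sites, all outside DRACH, were not called. Their highest level in DMSO was 15.3%, at a CCACG 202 bases after the stop codon, where STM2457 had 13.5%.

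Sites outside DRACH rested on less certain calls than DRACH sites. The median share of calls that failed the confidence filter in DMSO was 26.0% at the 26 member sites outside DRACH and 3.97% at the 10 DRACH sites, where it was 7.41% over all 855 member positions. With failed calls added to the denominator of the level, 21 of the 36 member sites remained at 10% or more, and all 13 called sites were among them and stayed lower.

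The H2afx stem-loop lies between the coding sequence and the methylated stretch. An exact histone stem-loop was found 47 to 62 bases after the stop codon (chr9:44335240-44335255, plus strand), shown with the stem and loop in capitals.
H2afx stem-loop: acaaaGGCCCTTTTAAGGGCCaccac
The search covered 18584 coding genes with an annotated 3′ UTR of at least 100 bases, so histone genes with shorter ones were left out. In the first 100 bases after the stop codon, these 16 letters, taken from H2afx itself, occurred in 1 gene, H2afx (0.00538%). The general pattern of this element, GGNNCTTTTNAGNNCC, read on the sense strand, was found in 28 of the genes searched (0.151%), of which 26 were histone genes. The median number of reads in DMSO was 513 over the coding sequence and 548 downstream of the stem-loop, and in STM2457 it was 176 and 194. Read depth thus showed no step across the stem-loop in these poly(A)-primed libraries, and the 7 strong sites lay in the part that a transcript ending at the stem-loop would not have. The GTACT in the last codon lies upstream of it. The form without a poly(A) tail was not measured here.

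H3f3b (ENSMUSG00000016559.14, chr11:116021961-116024504, minus strand) had the most covered DRACH motifs and the lowest mean level. Of its 25 covered 3′ UTR DRACH adenosines, 17 were below 1% and 23 below 5% in DMSO, and 10 had 0 m6A calls, which allows levels up to 0.719% to 2.38% depending on the site. They lay 191 to 1231 bases from the last exon junction. None of the 25 was a GGACT, whose median DMSO level over all covered 3′ UTR positions was 54.8%. GAACT, with a median of 22.2%, was not among them, and neither was GGACA, with 21.2%. AGACT, with a median of 17.9%, was present at 617 bases after the stop codon and stood at 0.714% in DMSO.

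TGACT and GGACC, which the 3′ UTRs of H3f3b and H2afx both hold, were far lower on H3f3b. H3f3b had 7 TGACT adenosines in its 3′ UTR, at 0% to 14.8% in DMSO, while the TGACT of H2afx was at 86.9% (83.6 to 89.8). Over all 1396 covered 3′ UTR TGACT positions the median was 7.04% and 41.6% reached 10%. GGACC was at 2.99% on H3f3b, 957 bases after the stop codon, and at 84.5% on H2afx.

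The TGACT at H3f3b 152 was the only site of this gene called lower after STM2457. Its level was 14.8% (11.5 to 18.6) in DMSO and 3.07% (1.54 to 5.43) in STM2457 (adjusted p = 6.63e-08 by Fisher's exact test). In the Mettl5 dataset WT had 9.06%, clone #1 had 12.6% and clone #2 had 13.2%, with overlapping intervals. The TGACT 4 bases upstream, at 148, was just outside the threshold of a site, with 9.26% in DMSO and 1.13% in STM2457. WT had 8.03% there, clone #1 had 5.97% and clone #2 had 6.34%.

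The highest H3f3b level was at the GTAAA of 457, which did not fall. It was at 29.4% (21.4 to 38.5) in DMSO and 36.4% (27.4 to 46.1) in STM2457 (adjusted p = 0.477 by Fisher's exact test). In the Mettl5 dataset WT had 22.3%, clone #1 had 13.3% and clone #2 had 9.52%. It was the only member site of 25% or more in DMSO whose relative decrease was under 25%. At this position 57.0% of calls failed the filter in DMSO and 41.8% in WT. At the CCAGT 34 bases before the end of the stop codon the level was 13.8% in DMSO and 7.69% in STM2457, which did not pass the test (adjusted p = 0.0854 by Fisher's exact test). The CTATA at 470 was at 9.69% in DMSO, 4.97% in STM2457 and 11.8% in WT. The 13 sites of H3f3b included 12 outside DRACH, of which none was called.

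**Figure D4:**
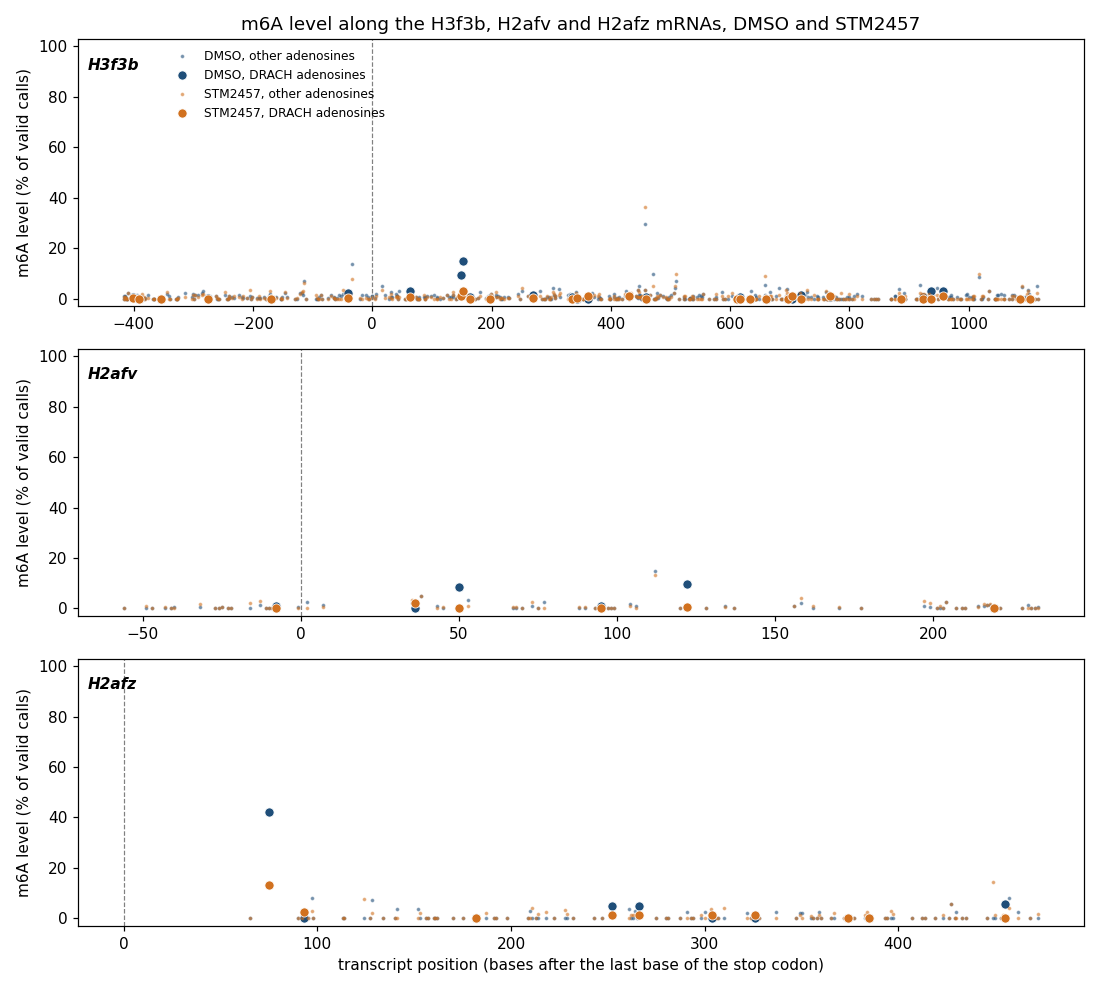
m6A level (percent of valid calls) of every covered adenosine along the H3f3b, H2afv and H2afz mRNAs, by distance in bases from the end of the stop codon, in DMSO and STM2457, on the same vertical scale as for H2afx. Large points are DRACH adenosines, small points other adenosines. The highest point in DMSO is 42.3%, at H2afz 75.

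H2afz (ENSMUSG00000037894.13, chr3:137864487-137866922, plus strand) was covered in its 3′ UTR and only in the METTL3 inhibition dataset, at a median of 38 calls in DMSO and 71 in STM2457. Its GGACT at 75 was at 42.3% of 26 calls (23.4 to 63.1) in DMSO and at 13.2% of 38 calls (4.41 to 28.1) in STM2457. The difference passed narrowly (adjusted p = 0.0413 by Fisher's exact test) and was lost under 3 of the alternative settings, with adjusted p of 0.102, 0.828 and 1. Its other site, a CTAAT at 449, was at 0 of 30 calls in DMSO, which allows up to 10%, and at 14.3% of 63 calls in STM2457 (adjusted p = 0.112 by Fisher's exact test). The other 9 covered DRACH adenosines of H2afz were at 5.56% or less in DMSO.

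H2afv (ENSMUSG00000041126.16, chr11:6427229-6444443, minus strand) was deeper, with a median of 313 calls in DMSO, and had no DRACH site. Its GGACT at 50 was at 8.58% in DMSO and at 0 of 199 calls in STM2457, which allows up to 1.51%. WT had 3.19%, clone #1 had 1.79% and clone #2 had 4.49%. Its AGACT at 122 was at 9.61% in DMSO, 0.465% in STM2457, while WT had 5.88%, clone #1 had 5.26% and clone #2 had 2.30%. Both lay just outside the threshold of 10%. The single H2afv site, a GTATG at 112, was at 14.9% of 161 calls in DMSO and 13.3% of 105 calls in STM2457 (adjusted p = 0.962 by Fisher's exact test), and 49.4% of its calls failed the filter in DMSO. GGACT thus stood at 94.9% on H2afx, 42.3% on H2afz and 8.58% on H2afv, and the intervals of these 3 values did not overlap. The H2afz and H2afv coding sequences share 79.1% of their 387 bases.

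H3f3a (ENSMUSG00000060743.12, chr1:180800832-180813632, minus strand) was not measured here, since none of its exonic positions was covered. Its 3′ UTR has 2245 bases and 51 DRACH motifs in the annotation. It has 37 annotated near-identical copies elsewhere in the transcript annotation (90% identity or more over at least 200 bases), against 3 for H3f3b, 4 for H2afz and 0 for H2afv, and none of these copies was covered either. H2afx has 18 such copies, mostly other H2A genes, and only H2afj among them was covered. How reads with several equally good alignments were placed is not given in the sources used here. H3f3a and H3f3b share 76.9% of the 411 bases of their coding sequences.

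No member site was called changed in either Mettl5-KO clone. All 33 sites covered in that dataset had an adjusted p above 0.05 in both clones (Fisher's exact test with Benjamini-Hochberg adjustment over 9682 exonic sites). Over all exonic sites, 0.062% were called lower and 0.0103% higher in clone #1, 0.062% lower and 0.0723% higher in clone #2, and 0.0516% changed the same way in both. The unadjusted p was below 0.05 at 2 member sites in clone #1 and 2 in clone #2. The smallest was 0.0137 in clone #1 (adjusted p = 0.880 by Fisher's exact test), at the TCAAC of H3f3b 947, where WT had 16.9%, clone #1 had 3.23% and clone #2 had 11.5%. In clone #2 it was 0.0113 (adjusted p = 0.744 by Fisher's exact test), at the GTAAA of H3f3b 457.

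The strong H2afx sites differed from WT by at most 6.27 percentage points in clone #1 and 17.2 in clone #2. The latter was at 785, with 65.9% (54.8 to 75.8) in WT and 48.7% (37.0 to 60.4) in clone #2 (Fisher's exact test, unadjusted p = 0.0375, adjusted p = 0.857). Clone #1 had 59.6% there. Only 76 calls of clone #2 covered this site, against 181 at 621, as its reads fell from 182 at 621 to 81 at 791. At these depths even the difference of 17.2 percentage points did not pass the test, so changes of that size could be missed.

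Read depth on H2afx was low in the STM2457 library. The median number of valid calls at its covered positions was 485 in DMSO and 170 in STM2457, while WT had 81, clone #1 had 99 and clone #2 had 139. The ratio of STM2457 to DMSO was 0.355, or 0.470 after division by the ratio over all positions (0.755), at percentile 0.437 of 2515 genes. On H2afz the scaled ratio was 2.40 (percentile 98.8), with 38 calls in DMSO and 71 in STM2457. H2afv and H3f3b had scaled ratios of 0.834 and 1.08, while 90% of genes lay between 0.665 and 1.87. In clone #1 and clone #2 the scaled ratio to WT was 1.48 and 1.77 on H2afx, 0.651 and 0.931 on H2afv and 0.838 and 0.791 on H3f3b. Over 966 genes, 90% lay between 0.648 and 1.60 in clone #1 and between 0.548 and 1.76 in clone #2. The percentiles were 91.2 and 95.1 for H2afx, 5.38 and 35.7 for H2afv and 21.3 and 18.6 for H3f3b. With 1 library per condition these ratios have no replicate error, and in bulk RNA fewer expressing cells and less RNA per cell cannot be told apart.

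H3f3b read depth stepped down at 2 places along its 3′ UTR in the libraries other than clone #2, which showed no clear step at either. In DMSO 433 reads crossed H3f3b at 333 bases after the stop codon and 283 at 361 bases, just after an AATAAA poly(A) signal at 328. At 538 bases there were 282 and at 564 bases 140, around an ATTAAA at 533. In clone #2 there were 184 and 175 reads at the first pair of positions and 138 and 135 at the second. The median depth from 360 to 533 bases was 65.3% of that in the first 328 bases in DMSO and 67.9% in STM2457. There WT had 74.6%, clone #1 had 74.4% and clone #2 had 73.7%. The median depth from 565 to 655 bases was 32.9% of that in the first 328 bases in DMSO and 29.4% in STM2457. WT had 47.5%, clone #1 had 47.3% and clone #2 had 66.3%. DMSO and STM2457 thus differed by a few percentage points, and WT and clone #1 kept a larger share of their H3f3b depth past the second step than both of them. The TGACT adenosines at 148 and 152 lie upstream of the first step.

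**Figure D5:**
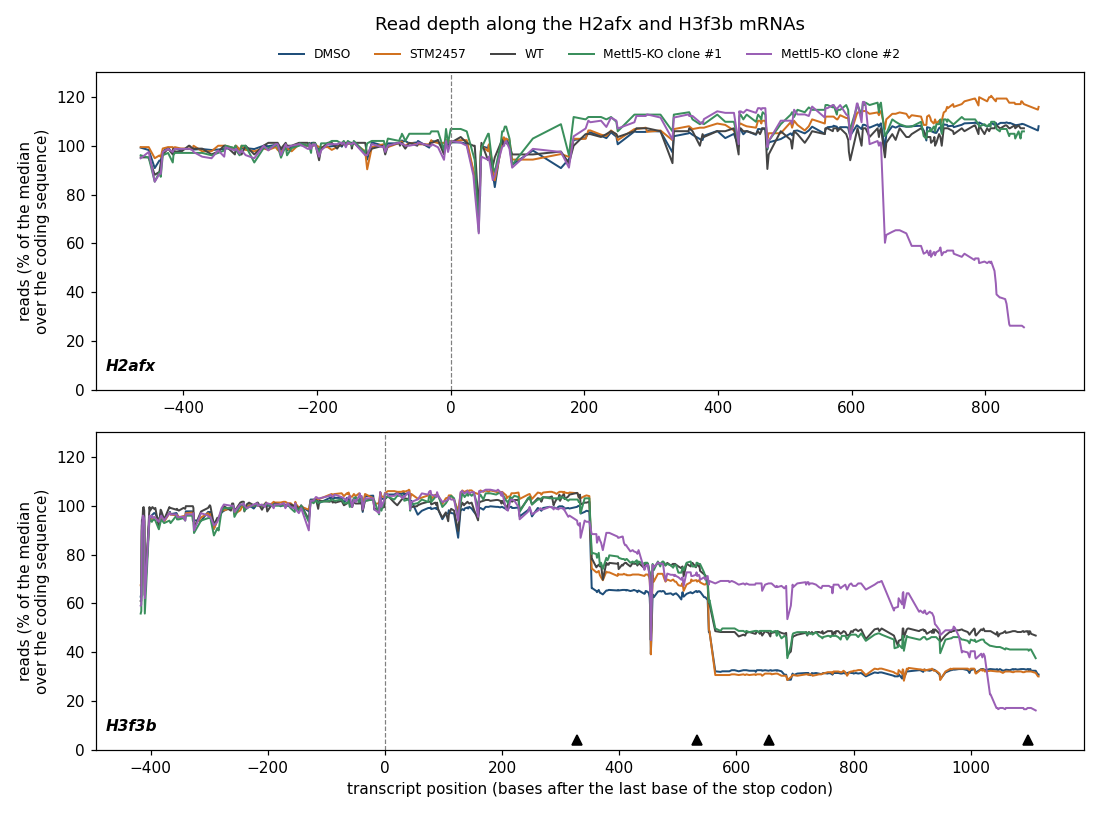
Reads crossing each covered adenosine of H2afx (top) and H3f3b (bottom), as percent of the median over the coding sequence in the same library, by distance in bases from the end of the stop codon. Triangles mark AATAAA or ATTAAA signals of H3f3b. H2afx depth keeps its level to the end of the covered 3′ UTR except in clone #2. H3f3b depth steps down after 328 and just after 533 in the 4 libraries other than clone #2. In clone #2 neither step is clear.

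Some sites of other histone genes with polyadenylated mRNAs and of the factors that handle these variants were also lower after STM2457, at shares not above the 41.5% of all exonic sites. Of 13 other histone genes listed, 5 were covered, with 41 sites, 12 of them lower and 0 higher after STM2457, and a median relative decrease of 69.0%. H1f0, a linker histone, had 15 sites, and its highest fell from 77.6% to 27.6%. H1fx, another linker histone, had 13 sites, and its highest DRACH site fell from 35.3% to 1.85%. The highest site of Cenpa, the centromeric H3 variant, fell from 59.1% to 11.7%, and that of H2afy, which encodes macroH2A, from 20.8% to 4.35%. H2afj had 2 sites and 0 lower. Among 31 histone chaperones and exchange factors, 15 were covered, with 124 sites, 47 of them lower and 1 higher, and a median relative decrease of 79.4%. Daxx, a chaperone of H3.3, had 19 sites and fell from 94.9% to 48.6% at its highest. Ssrp1, a subunit of the FACT complex, had 28 sites, 5 lower and 1 higher, and its highest was at 73.9% in DMSO and 12.1% in STM2457. Asf1b and Chaf1a, chaperones of H3 and H4, had their highest sites at 92.6% and 98.0% in DMSO and at 36.4% and 45.2% in STM2457, respectively. Each of these highest DRACH sites was called lower (adjusted p = 0.00851 at most by Fisher's exact test).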

How the data were processed

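Reads were demultiplexed with WarpDemuX by the authors, who used dorado for base and modification calling and for alignment to mm10, and modkit for pileups. The deposited counts are valid, m6A, unmodified, other-modification and failed calls per position and strand, without normalization, and the deposited percent is the share of valid calls that were m6A. The methods ask for more than 25 reads, and the lowest deposited coverage was 25. From these counts, levels and two-sided Fisher's exact tests were computed per site (scipy 1.17.1 and pandas 2.3.3 in Python 3.11.15), with Benjamini-Hochberg adjustment over all exonic sites of 10% or more in any library. Exons and motifs came from GENCODE M21, whose transcripts had an A at 99.8% of exonic positions. Copies were searched with blastn 2.17.0.

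The members, gene lists and tests were chosen with earlier results of these data known. Named sites were up to 4 per member with the highest DMSO level, and sites of 25% or more with a relative decrease under 25%. In each other list, the genes with the most sites served as examples. Exact binomial 95% intervals and limits for 0 calls (3 counts) cover counting error only. On simulated data for STM2457 against DMSO, with 19980 sites of which 200 were lowered by 70%, 55.5% of these were found, and 2 others were called. For clone #1 and clone #2 against WT, with 9682 sites and 200 lowered by the same size, 51% and 53% were found. The lowered sites were drawn only from those of 25% or more in DMSO or WT. These shares thus do not hold for weaker sites, whose detection was not simulated. In the STM2457 data 41.5% of exonic sites were called lower, far more than the 200 lowered here. The adjustment was thus stricter in that simulation than in the data. The shares are also averages over sites of all depths, not those of H2afx. Alternatives were other coverage and site thresholds, failed calls in the denominator, DRACH only, other exons, Bonferroni adjustment and 1 clone at a time. Reads start at the poly(A) tail, so depth favours 3′ ends.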

Additional observations from a re-analysis of the deposited data

Results flagged for a closer look

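Calls of other modifications, which the m6A comparisons leave out of the numerator, made up 10% or more of the valid calls at 2 member positions in every library that covers them, above the level that a count of 0 allows except in clone #2. The deposited counts hold inosine and 2′-O-methyladenosine together in this class, without separating them. At H2afv, 197 bases after the stop codon (chr11:6428174), they made up 18.4% of 234 valid calls in DMSO and 20.6% of 141 in STM2457. At H2afx, 854 bases after the stop codon (chr9:44336047), they made up 14.5% in DMSO, 13.4% in STM2457, 12.1% in WT and 17.1% in clone #1, and 3 of 30 calls in clone #2 (10%), which equals the level that a count of 0 allows there. Over all covered member positions the share was 0.520% in DMSO, 0.435% in STM2457, 0.610% in WT, 0.657% in clone #1 and 0.693% in clone #2. Both positions were also rich in failed calls, with 31.4% and 34.4% in DMSO and STM2457 at the H2afv position and 26.7% to 34.6% at the H2afx position, whose part in these values was not tested.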

How the results depend on the processing

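The count of 13 lower sites after STM2457 was 8 among 9 sites when 25% was asked of a site, and with 5% the count of higher sites was 1 in place of 0. That site was the CAAGA in the H2afx coding sequence, at 1.53% in DMSO and 6.84% in STM2457 (adjusted p = 0.0486 by Fisher's exact test). With 5% asked of a site, 17 were called, 12 of them shared with the main result. The other 4 calls it added were lower and at DRACH adenosines, namely H2afx 519 (9.42% in DMSO and 0 of 186 calls in STM2457), H3f3b 148, H2afv 50 and H2afv 122 (adjusted p = 2.17e-05 at most by Fisher's exact test). With every exonic position tested, 16 were called, 12 of them shared, and with Bonferroni adjustment 9. The other counts stayed within 1.5 times. The call at H2afz 75 was lost with a 5% threshold (adjusted p = 0.102), with every position tested (0.828) and with Bonferroni adjustment (1), all by Fisher's exact test, and this site was below a coverage of 50 calls. Bonferroni adjustment also ended the calls at 3 weaker H2afx sites. The level difference of a named site could change only with failed calls in the denominator, as the other settings leave the levels as they are. In that setting none of the named sites still tested changed direction. With either clone left out, the count became that of the other clone alone against WT, which was 0 in the main result. This setting was thus no separate check. No paired analysis was possible because every group but the Mettl5-KO clones has 1 library and the labels give no shared replicate numbers.

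Depth limits H2afz most, at a median of 38 calls in DMSO, and the distal H2afx and H3f3b sites in clone #2. Positions under 25 calls in any library of a dataset are not in these values, and H3f3a was not measured.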
